A study of Homo sapiens with 6 samples.

Results

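The genes described here are 32 regulators, targets and companions of the NRF2 pathway. They were chosen by name as an established set of antioxidant genes, with earlier results of the data known. The genes were looked up in the annotation of the array. Of these, 31 had at least 1 probe set carrying their symbol alone, 31 of 19775 genes tested, and FTH1, the ferritin heavy chain gene, had none. The cells were HUVECs, primary endothelial cells of the umbilical vein that grow for a limited time and keep much of the character of vessel lining. They were transfected with an siRNA against ANRIL, a long noncoding RNA listed as CDKN2B-AS1, or with a scrambled control siRNA, and each group had 3 Affymetrix U133 Plus 2.0 arrays. Both groups were grown in endothelial medium with serum, growth factors, heparin, ascorbic acid (itself an antioxidant) and hydrocortisone, and both went through the same non-liposomal transfection, so the comparison holds these constant. The design speaks of 3 sets of cells. Neither the time from transfection to harvest nor whether the sets came from separate donors or cultures is stated, so p-values measure the spread between these arrays, which may be technical.

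NRF2, the product of NFE2L2, is a transcription factor that KEAP1 holds in the cytoplasm and hands to a ubiquitin ligase for destruction. When oxidants or electrophiles modify KEAP1, NRF2 accumulates, pairs with a small MAF protein such as MAFG and binds antioxidant response elements, sites that the heme-sensitive repressor BACH1 occupies in resting cells. Its targets make glutathione, reduce thioredoxin, supply NADPH, detoxify quinones and carbonyls and break down heme, and in endothelium they are known for protecting the vessel wall, with HMOX1 and NQO1 among those induced by laminar flow.

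An antioxidant response element has the core TGACNNNGC. That core was searched on both strands of the 250 bases before the RefSeq start of each gene (GRCh38.p14), where 23 of the genes had an entry. It was found in 4 of them, or 17.4%, against 12% of 15384 promoters of the genes tested. The 4 stretches are shown because they hold the letters of that core in genes of the set. The capitals mark the core, with 30 flanking bases where the window allows, 5′ to 3′ along the gene.
GCLM, chr1:93909431-93909494, minus strand: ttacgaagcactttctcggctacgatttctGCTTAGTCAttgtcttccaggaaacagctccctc
TXNRD1, chr12:104215650-104215718, plus strand: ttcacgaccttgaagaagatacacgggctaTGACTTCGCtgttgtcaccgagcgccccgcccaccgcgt
ME1, chr6:83431150-83431218, minus strand: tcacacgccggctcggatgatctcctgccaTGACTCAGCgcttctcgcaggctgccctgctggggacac
PGD, chr1:10398833-10398901, plus strand: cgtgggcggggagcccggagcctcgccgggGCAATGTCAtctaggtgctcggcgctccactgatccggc
The core lay on the gene's strand in TXNRD1 and ME1 and on the opposite strand in GCLM and PGD. A match is a description of letters, and nothing is drawn from it, or from its lack in the other windows, about binding. TXNRD1 and GCLM had differences above 0 and ME1 and PGD below 0.

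Across all 19775 genes the limma fit called 0 at an adjusted p under 0.05 in either direction (0% higher, 0% lower, smallest adjusted p = 0.125), and 0 of the 31 genes passed. At an unadjusted p under 0.05 the fit gave 9.83% of all genes higher and 8.16% lower with ANRIL siRNA, and 1 of the 31 higher (HMOX1) and 3 lower (SQSTM1, GPX4 and CAT). The values of the 2 groups did not overlap, with ANRIL siRNA higher, at 2 of the 31 (HMOX1 and TXNRD1, against 10.6% of all genes), and with ANRIL siRNA lower at 5 (SQSTM1, GCLC, GPX4, ME1 and CAT, against 12.8%). The counts in both directions are thus near those of genes in general. Of the 31, 21 lay below 0, against 51.3% of all genes, and their median difference was −0.02, against 0.00 over all genes.

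Signal strength bears on that comparison. Of the 31, 21 stood in the brightest decile of genes, where 87.7% of genes lay below 0 with a median of −0.07, while in the third decile 27.2% lay below 0. Each gene was therefore also set beside the 500 genes nearest to it in mean signal over all 6 arrays, as a description without a test. By that measure 22 of the 31 lay above the median of the genes of like brightness and 9 below it, and the median of the 31 gaps was 0.02. The standard errors of the 31 single differences (0.06 to 0.13) do not measure the spread of a median over 31 genes. The median deviation of the 31 genes from their group means had an SD of 0.03 between arrays. The highest gaps were those of HMOX1, AKR1C1 and TXNRD1.

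**Figure D1:**
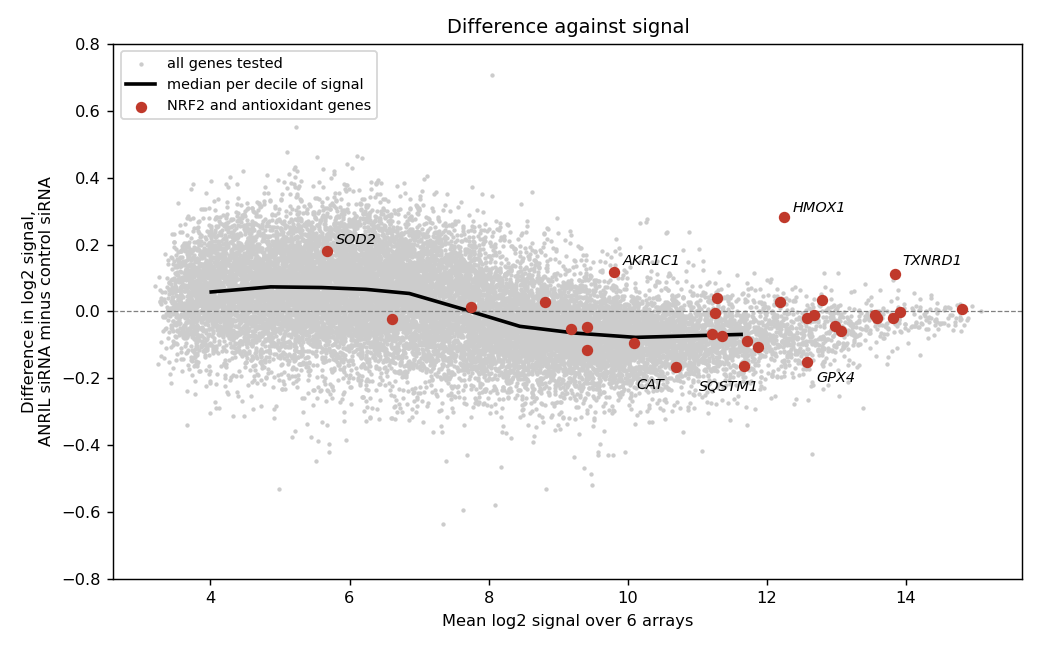
Difference in log2 signal (ANRIL siRNA minus control siRNA) against mean log2 signal over 6 arrays, for all 19775 genes (grey, 1 of them outside the axis range), the median per decile (black line) and the 31 NRF2 and antioxidant genes (red). Most red points lie at the bright end, 10 of the 31 above 0 and 21 below, with HMOX1 at 0.28 and TXNRD1 at 0.11 near or above the upper edge of the cloud at their brightness.

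Other measures of the samples stood as follows. Over all probe sets, whose values are not independent of each other, 2 arrays of the same group correlated at 0.9971 to 0.9977 and 2 of different groups at 0.9964 to 0.9974. The 1 probe set of CDKN2B-AS1 was dim, at percentile 4.6 of genes, with log2 values of 3.69, 4.05 and 4.05 with ANRIL siRNA and 4.08, 4.05 and 3.95 with control siRNA, so that the groups overlapped (−0.10 ± 0.10, SE, adjusted p = 0.606) and the arrays gave no check of the knockdown. The 10 endothelial markers, among them PECAM1, CDH5 and VWF, were all above the median signal. They were lower with ANRIL siRNA at 10 of 10 (median −0.17), where 87.4% of genes of like brightness lay below 0 on average. Of the 10, 9 lay below the median of genes of like brightness. Their summed linear signal ran from 35923 to 38613 with ANRIL siRNA and from 40446 to 43189 with control siRNA. Of the markers of other cells, 2 of 9 leukocyte, 4 of 10 smooth muscle, 2 of 10 fibroblast, 3 of 10 epithelial and 1 of 7 erythroid genes were above the median signal. PTPRC, EPCAM and LUM were dim in both groups, at percentiles 7.9, 25.5 and 1.4. The brightest markers of the lists stood higher, with RGS5 (smooth muscle) at 99.4, KRT18 (epithelial) at 95.1 and COL1A1 (fibroblast) at 78.1. CD79A (leukocyte) was at 57.9 and HBB (erythroid) at 52.3. Summed leukocyte signal ran from 786 to 862 with ANRIL siRNA and from 695 to 750 with control siRNA. Of the 9 leukocyte markers 8 lay above 0, where 31.9% of genes of like brightness lay below 0 on average. Above the median of genes of like brightness were 7 of the 9. Erythroid sums ran from 489 to 549 with ANRIL siRNA and from 452 to 498 with control siRNA, and fibroblast sums from 1358 to 1459 with ANRIL siRNA and from 1301 to 1355 with control siRNA. All 7 erythroid markers lay above 0, where 31.8% of genes of like brightness lay below 0 on average. Of the 7, 5 lay above the median of genes of like brightness. Smooth muscle sums ran from 15993 to 16422 with ANRIL siRNA and from 16606 to 16907 with control siRNA, and epithelial sums from 4164 to 4279 with ANRIL siRNA and from 4573 to 4909 with control siRNA. Linear sums are weighted to the brightest genes of a list. They went the same way as the counts of genes for endothelial, leukocyte and erythroid markers, though the erythroid ranges overlapped. They did not for fibroblast, smooth muscle and epithelial markers. Higher and lower with ANRIL siRNA were 4 and 6 fibroblast, 6 and 4 smooth muscle, and 5 and 5 epithelial markers. The part of these shifts in the differences below was not tested. The 3′ minus 5′ signal of ACTB was 0.72 ± 0.13 with ANRIL siRNA and 0.54 ± 0.05 with control siRNA (SD, n = 3 each, p = 0.2 by a two-sided exact permutation test that cannot go below 0.1), and that of GAPDH was 0.06 ± 0.03 with ANRIL siRNA and 0.00 ± 0.01 with control siRNA (SD, n = 3 each, exact permutation p = 0.1, the smallest possible). The groups overlapped for ACTB by a narrow margin and did not overlap for GAPDH, where every ANRIL siRNA value was higher. The part of this shift in the differences below was likewise not tested. In bulk RNA, fewer cells that express a gene and less RNA per cell cannot be told apart.

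The regulators differed little. NFE2L2, the gene of NRF2 itself, read 11.20, 11.29 and 11.27 with ANRIL siRNA and 11.27, 11.24 and 11.26 with control siRNA. The groups overlapped, and the difference of 0.00 had a 95% interval from −0.13 to 0.13. Its 2 dimmer probe sets pointed opposite ways, at −0.17 and 0.05. KEAP1, the sensor that marks NRF2 for destruction, read 10.001, 10.118 and 10.010 with ANRIL siRNA and 10.062, 10.152 and 10.197 with control siRNA (−0.09 ± 0.07, SE, adjusted p = 0.455). Replicate 2 of the ANRIL siRNA arrays lay within the control range, and genes of like brightness had a median of −0.08. BACH1, the repressor, lay above 0 at all 3 probe sets, by 0.03 ± 0.08 at the brightest and by 0.16 and 0.17 at the dimmer ones. MAFG, the small MAF partner, differed by −0.05 ± 0.06, and its second probe set by 0.03.

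SQSTM1 encodes p62, an autophagy receptor that binds KEAP1 and is itself a target of NRF2. It read 11.51, 11.60 and 11.67 with ANRIL siRNA and 11.76, 11.83 and 11.68 with control siRNA. The groups just failed to overlap, with ANRIL siRNA replicate 3 and control siRNA replicate 3 nearly equal (−0.16 ± 0.07, SE, adjusted p = 0.252). Its 5 probe sets did not move together. Beside the brightest, that of rank 3 in signal was lower by a like amount (−0.20 ± 0.09, adjusted p = 0.321 over all probe sets) and that of rank 2 was at −0.01, while ranks 4 and 5 were at 0.06 and 0.09. At the dim probe set of rank 5 every ANRIL siRNA value lay above every control value.

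HMOX1 stood furthest above 0. It encodes heme oxygenase, which splits heme into iron, carbon monoxide and biliverdin and is regulated by both NRF2 and BACH1. Its 1 probe set read 12.29, 12.46 and 12.40 with ANRIL siRNA and 11.94, 12.11 and 12.26 with control siRNA. Every ANRIL siRNA value lay above every control value, with a gap of 1.22-fold between the means (0.28 ± 0.09, SE, n = 3 each, 95% interval 0.09 to 0.47), and the spread among the controls (SD 0.16) exceeded that among the ANRIL siRNA arrays (SD 0.08). The difference did not pass over all genes (adjusted p = 0.172). All 500 genes of like brightness had a lower difference, and this was so in each of the 11 settings in which it was computed, among them 3 other scalings and each array left out. Without control siRNA replicate 1 the difference was 0.20, and without control siRNA replicate 3 it was 0.36.

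Iron released by heme oxygenase is stored in ferritin, whose light chain is encoded by FTL. Both FTL probe sets read near the top of the array scale, at 14.81, 14.79 and 14.82 with ANRIL siRNA and 14.80, 14.80 and 14.80 with control siRNA for the brighter. The difference was 0.01 ± 0.06 (95% interval −0.12 to 0.13). Array signals near the top of the scale are known to be compressed, and both probe sets are of the _x_at kind, which can also read related sequences such as ferritin pseudogenes.

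**Figure D2:**
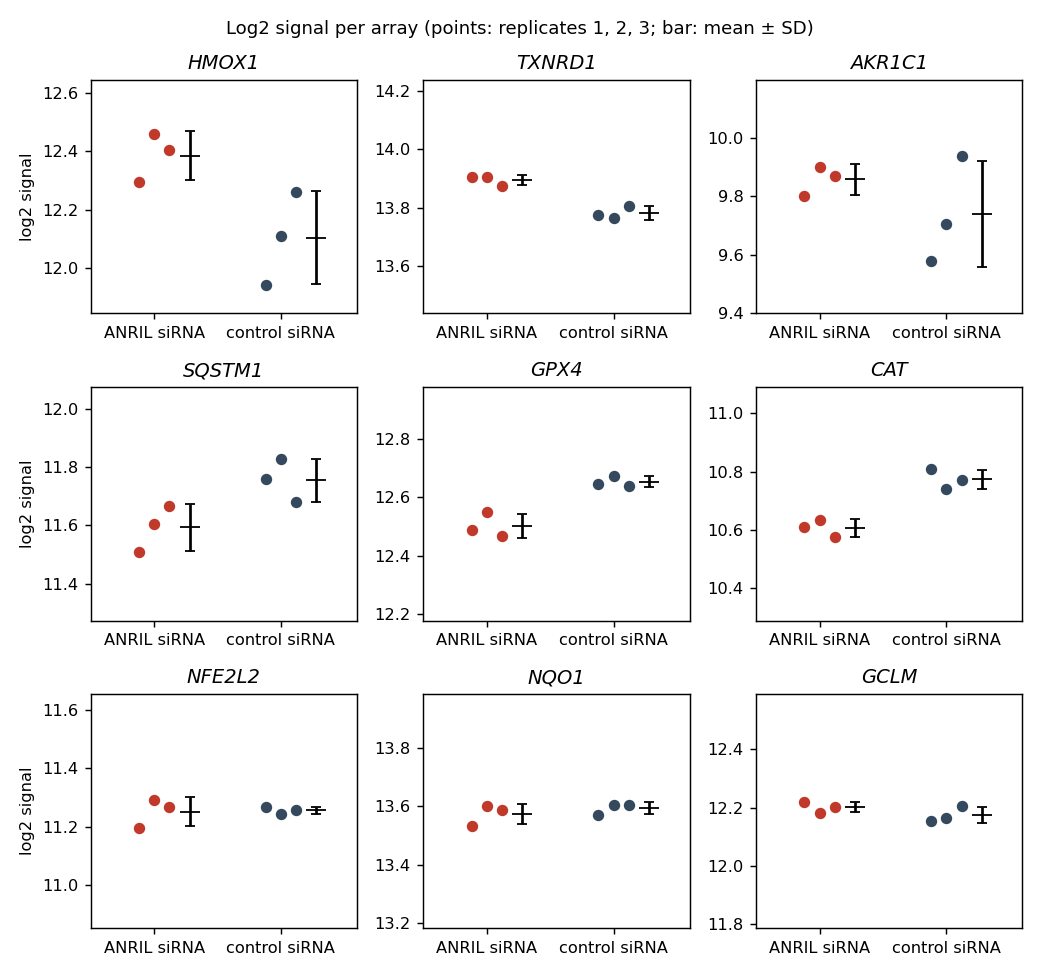
Log2 signal on each array for 9 genes, ANRIL siRNA left and control siRNA right. Points are replicates 1, 2 and 3 in that order, bars are mean ± SD, and each panel spans the same 0.8 log2 units. The groups are apart for HMOX1, TXNRD1, SQSTM1, GPX4 and CAT and overlap for AKR1C1, NFE2L2, NQO1 and GCLM.

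Thioredoxin reductase and the thiol peroxidases came next. TXNRD1, the selenoenzyme that returns oxidised thioredoxin to its working form, read 13.90, 13.90 and 13.87 with ANRIL siRNA and 13.77, 13.76 and 13.81 with control siRNA. The groups were apart and both were tight, with SDs of 0.02 (0.11 ± 0.06, SE, 95% interval −0.01 to 0.24, adjusted p = 0.318). Its difference exceeded that of 99.6% of the genes of like brightness, and of 99.2% to 99.8% over the 11 settings. The other TXNRD1 probe set was at the floor of the array, at a mean of 3.43 and a difference of −0.04. TXN, thioredoxin itself, differed by −0.04 ± 0.06, and SRXN1, the sulfiredoxin that repairs overoxidised peroxiredoxins, by 0.04 ± 0.06. The cytosolic peroxiredoxins PRDX1 and PRDX6 were at 0.00 and −0.01, and the mitochondrial PRDX3 was at −0.11 ± 0.06 with overlapping groups (adjusted p = 0.379). The dimmer probe set of PRDX3 was at 0.14, so that the direction of that gene was not shared by its probe sets.

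Glutathione genes gave no common direction, with 2 of 7 above 0 and 5 below, where 85.4% of genes of like brightness lay below 0 on average. Above the median of genes of like brightness were 5 of the 7. Cystine enters through SLC7A11, which read 12.79, 12.86 and 12.77 with ANRIL siRNA and 12.77, 12.73 and 12.80 with control siRNA (0.03 ± 0.06, SE), while its 2 dimmer probe sets were at −0.07 and −0.02. The first enzyme of glutathione synthesis has a catalytic subunit, GCLC, and a modifier subunit, GCLM. GCLC read 9.35, 9.42 and 9.30 with ANRIL siRNA and 9.45, 9.54 and 9.44 with control siRNA, apart by a narrow margin (−0.12 ± 0.06, SE, adjusted p = 0.348). Its other 2 probe sets lay above 0, at 0.03 and 0.21, so that its probe sets did not share a direction. GCLM, whose promoter carries the core shown above, read 12.22, 12.18 and 12.20 with ANRIL siRNA and 12.15, 12.16 and 12.20 with control siRNA. The groups overlapped (0.03 ± 0.06, SE), and 93.2% of genes of like brightness had a lower difference. The 2 dimmer GCLM probe sets were at −0.15 ± 0.08 and 0.01, both with overlapping groups, so that its probe sets did not share a direction either.

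GPX4, the selenoenzyme that reduces lipid hydroperoxides in membranes and guards against ferroptosis, read 12.49, 12.55 and 12.47 with ANRIL siRNA and 12.65, 12.67 and 12.64 with control siRNA. All ANRIL siRNA values were below all control values, by 1.11-fold between the means (−0.15 ± 0.06, SE, adjusted p = 0.222), and 9.6% of genes of like brightness were lower still. GPX1, the abundant cytosolic glutathione peroxidase, was at −0.02 ± 0.06. GSR, which regenerates reduced glutathione, was at −0.05 ± 0.07 at its brightest probe set. At the other, of similar signal, it was at 0.15 ± 0.06, with 9.36, 9.42 and 9.40 with ANRIL siRNA and 9.23, 9.30 and 9.20 with control siRNA (adjusted p = 0.324 over all probe sets). ABCC1, an exporter of glutathione conjugates, was lower at both probe sets, by −0.07 ± 0.07 and −0.10 ± 0.07.

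**Figure D3:**
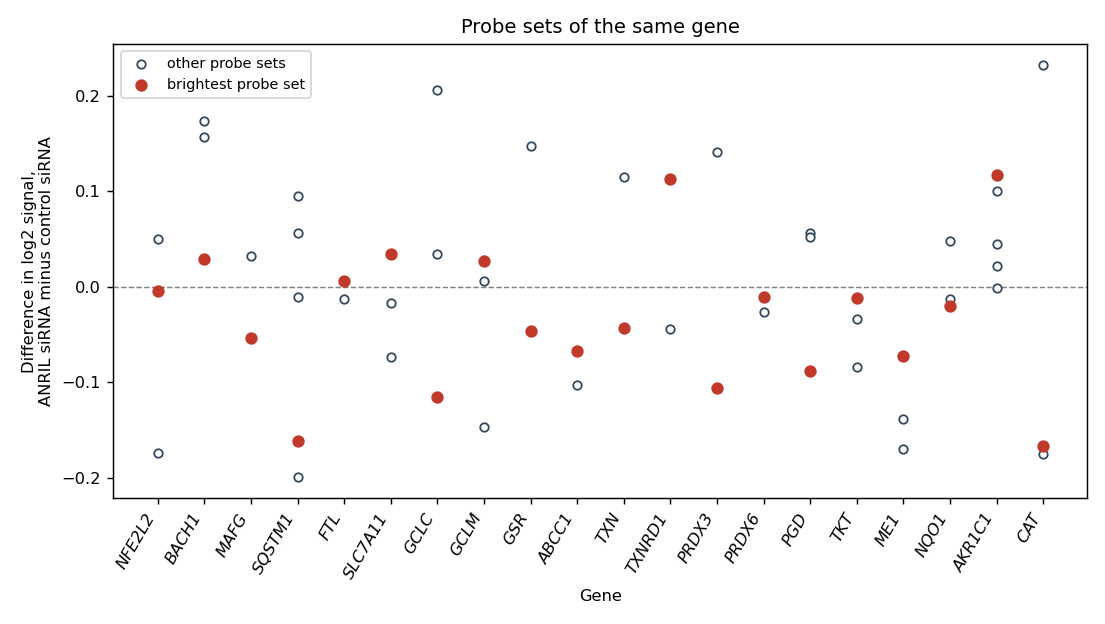
Differences in log2 signal (ANRIL siRNA minus control siRNA) of all probe sets of the 20 genes that had several, the brightest filled red and the others open. For 15 of the 20 genes the probe sets lie on both sides of 0, and for ABCC1, BACH1, ME1, PRDX6 and TKT they lie on 1 side.

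The agreement between probe sets was limited throughout. Of the 31 genes 20 had several probe sets, and 5 of the 20 had all of them on 1 side of 0. Signal strength bears on these signs too, since 27.2% of genes in the third decile of signal lay below 0 and 87.7% in the brightest. Probe sets were not set beside others of like brightness, so their shared or mixed signs are not adjusted for that trend. Of the 67 probe sets in all, 29 were higher and 38 lower. At an unadjusted p under 0.05, 4 were higher and 6 lower, where 8.96% and 6.14% of all 54613 probe sets were, and the smallest adjusted p was 0.242.

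NADPH, the electron donor of the glutathione and thioredoxin systems, is made by the pentose phosphate enzymes PGD, TALDO1 and TKT and by malic enzyme, ME1. All 4 lay below 0, at −0.09 ± 0.09, −0.02 ± 0.07, −0.01 ± 0.06 and −0.07 ± 0.06 (SE), and none passed. Of genes of like brightness 88.6% lay below 0 on average, and 3 of the 4 lay above the median of such genes. PGD varied most from array to array, with 11.48, 11.67 and 11.86 with ANRIL siRNA and 11.67, 11.82 and 11.79 with control siRNA, and without ANRIL siRNA replicate 1 its difference was 0.01. ME1 was the only one of the 4 whose groups did not overlap, with 11.32, 11.35 and 11.27 with ANRIL siRNA and 11.40, 11.40 and 11.35 with control siRNA. All 3 ME1 probe sets were lower, and the second stood furthest apart, at 10.22, 10.21 and 10.14 with ANRIL siRNA and 10.37, 10.36 and 10.35 with control siRNA (−0.17 ± 0.06, adjusted p = 0.271 over all probe sets).

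NQO1, the quinone reductase often used as a readout of NRF2 activity, read 13.53, 13.60 and 13.59 with ANRIL siRNA and 13.57, 13.61 and 13.61 with control siRNA. The groups overlapped at all 3 of its probe sets, and the brightest differed by −0.02 ± 0.06 (95% interval −0.15 to 0.11). AKR1C1, an aldo-keto reductase of steroids and reactive carbonyls, read 9.80, 9.90 and 9.87 with ANRIL siRNA and 9.58, 9.70 and 9.94 with control siRNA. Control siRNA replicate 3 was the highest of all 6 arrays, so the groups overlapped (0.12 ± 0.09, SE, adjusted p = 0.491), and 98.4% of genes of like brightness had a lower difference. Without control siRNA replicate 1 the difference was 0.04, and without control siRNA replicate 3 it was 0.22. The 4 dimmer probe sets were at 0.02, 0.00, 0.10 and 0.04, all with overlapping groups. The brightest probe set is of the _x_at kind and can also read the near-identical AKR1C2, so the value is uncertain for AKR1C1 alone. AKR1B10, a related reductase, and OSGIN1, an oxidative-stress-induced growth inhibitor, were at −0.02 ± 0.08 and 0.01 ± 0.07.

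CAT, the peroxisomal catalase that splits hydrogen peroxide, read 10.61, 10.63 and 10.58 with ANRIL siRNA and 10.81, 10.74 and 10.77 with control siRNA. The groups were apart by 1.12-fold between the means (−0.17 ± 0.06, SE, adjusted p = 0.195). The second probe set was lower by the same size (−0.18 ± 0.08), at 8.46, 8.68 and 8.61 with ANRIL siRNA and 8.69, 8.77 and 8.81 with control siRNA. The third, at the dim end of the array, was higher, with 4.61, 4.51 and 4.59 with ANRIL siRNA and 4.39, 4.21 and 4.42 with control siRNA (0.23 ± 0.08, adjusted p = 0.245 over all probe sets). SOD1, the copper-zinc superoxide dismutase, was at −0.06 ± 0.07, the same as the median of genes of like brightness. SOD2, the mitochondrial manganese enzyme, could be read only at 1 dim probe set, where it was at 0.18 ± 0.13 with overlapping groups. Leaving out ANRIL siRNA replicate 3 gave 0.33, leaving out ANRIL siRNA replicate 2 gave 0.08, and leaving out control siRNA replicate 1 gave 0.07. The 4 other probe sets listed for it carry a second symbol and were not used for naming.

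**Figure D4:**
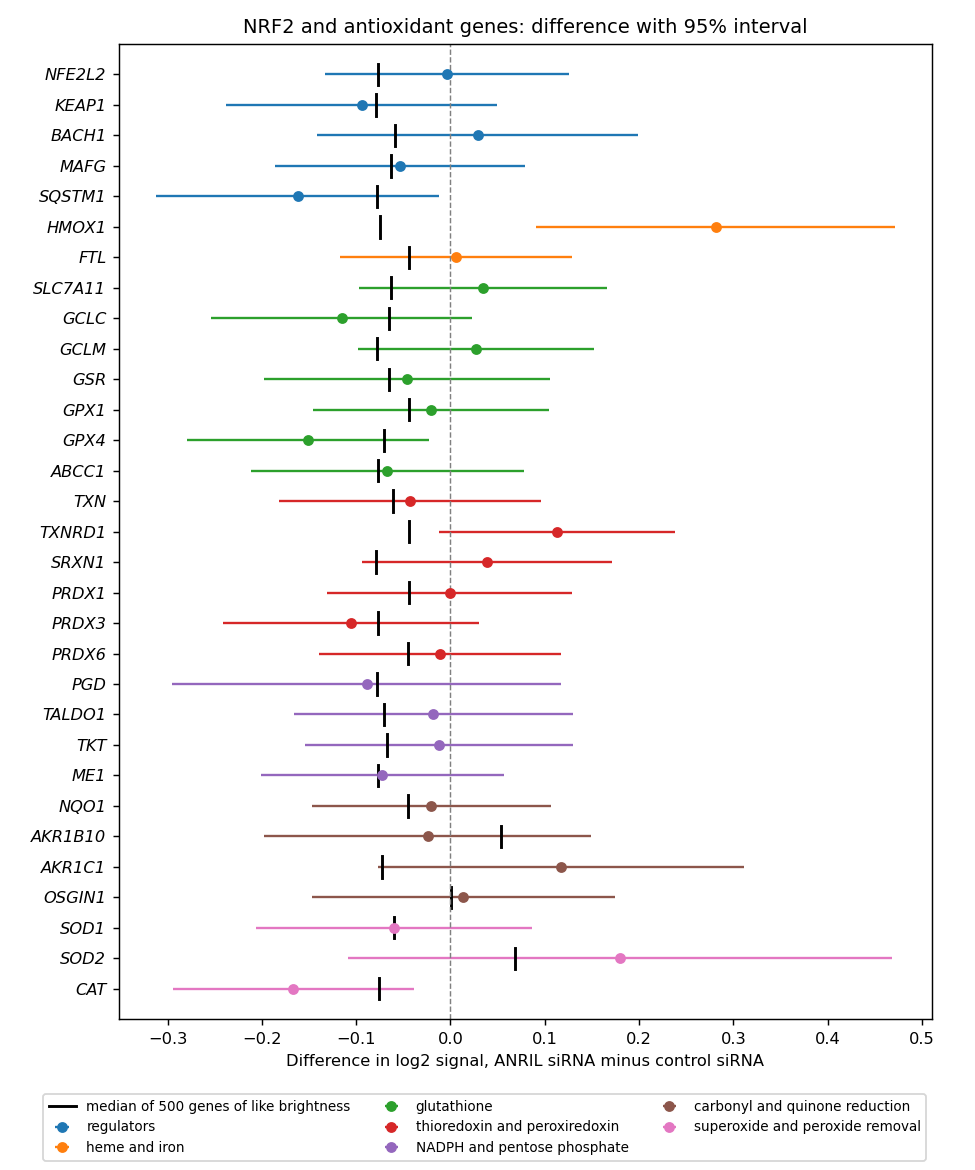
Difference in log2 signal (ANRIL siRNA minus control siRNA) of each of the 31 genes with its 95% interval, coloured by role, and the median of 500 genes of like brightness (black tick). The interval excludes 0 for HMOX1 on the right and for SQSTM1, GPX4 and CAT on the left, before any adjustment for the number of genes tested.

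For the values as deposited, these intervals set the size of what could be missed. For 29 of the 31 genes the 95% interval, unadjusted, lay within a 1.3-fold change in either direction, and the exceptions were HMOX1 and SOD2. The count of 29 was made only in the values as deposited. The intervals do not cover the choice of scaling, or compression near the top of the scale. AKR1C1, for example, was at 0.12 ± 0.09 as deposited and at 0.20 ± 0.09 after quantile normalization was repeated (SE). For 22 of the 31 the estimate lay within 0.1 log2 units of 0.

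The shared shift of the group depended on how the arrays were scaled. With arrays centred on their medians 27 of the 31 genes lay below 0 (median −0.07), in the values as deposited 21 (median −0.02), after quantile normalization was repeated 7 (median 0.02) and after cyclic loess, which evens out a trend with signal, 8 (median 0.05). The share of all genes below 0 ran likewise, at 65.6%, 51.3%, 44.8% and 46.3%. The count of the 31 above the median of genes of like brightness moved less, at 22, 22, 23 and 22 in the same order. With each array left out that count ran from 18 to 24. HMOX1 (0.23 to 0.36) and TXNRD1 (0.06 to 0.18) lay above 0 and SQSTM1, GPX4 and CAT below it under each of these 4 scalings, with the differences of the last 3 reduced to between −0.06 and −0.08 by the quantile and loess steps. NFE2L2 was at 0.09 with the quantile step and at 0.08 with the loess step.

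**Figure D5:**
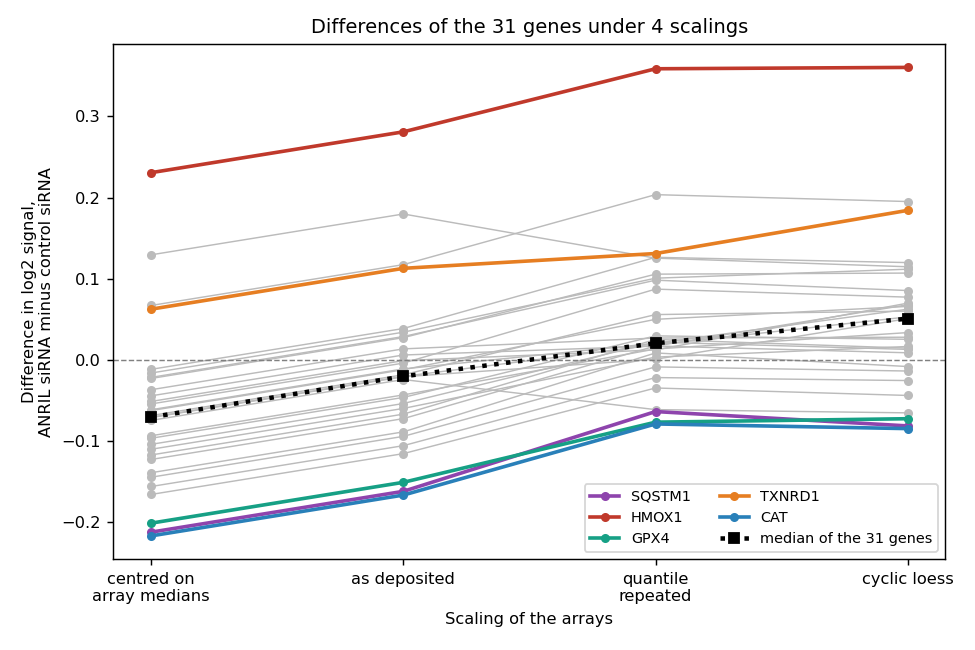
Differences in log2 signal (ANRIL siRNA minus control siRNA) of the 31 genes under 4 scalings of the arrays, 1 line per gene, with the median of the 31 dotted. The median runs from −0.07 through −0.02 and 0.02 to 0.05, while HMOX1 stays at the top and CAT, GPX4 and SQSTM1 stay among the lowest lines.

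With an intensity-trended robust prior, which lets bright genes borrow a smaller spread than dim ones, limma called 0.582% of all genes higher and 2.15% lower. By that fit HMOX1 (adjusted p = 0.0187) and TXNRD1 (adjusted p = 0.0406) were called higher and GPX4 (adjusted p = 0.031) lower, with the same differences as above. Which genes were called changed with the array left out. Leaving out ANRIL siRNA replicate 3, control siRNA replicate 1 or control siRNA replicate 2 left none of the 31 called in that fit, which then called 0.121%, 0.167% and 0.0101% of all genes higher and 0.587%, 0.516% and 0.192% lower, in that order. Without ANRIL siRNA replicate 1 HMOX1 alone was called, where 0.0809% of all genes were called higher and 0.576% lower. Without ANRIL siRNA replicate 2 TXNRD1 was called higher and SQSTM1, GPX4, SOD1 and CAT lower, where 1.77% of all genes were called higher and 5.65% lower. Without control siRNA replicate 3 HMOX1 and TXNRD1 were called higher and SQSTM1 lower, where 0.506% of all genes were called higher and 2.03% lower. The number called among the 31 was thus largest where the most genes of the whole array were called. After cyclic loess with the same prior, where 0.298% of all genes were called higher and 0.379% lower, TXNRD1 was called (0.18 ± 0.03, adjusted p = 0.00485) and HMOX1 was not (0.36, adjusted p = 0.056).

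Of the other genes of the pathway, 0 passed the adjusted threshold in the fit over all genes. Among 24 other NRF2 targets, 11 lay above 0 and 13 below (median −0.04), and 17 of the 24 lay above the median of genes of like brightness. At an unadjusted p under 0.05, 2 were higher and 3 lower, near the 9.83% and 8.16% of all genes. GPX2, a glutathione peroxidase, read 7.70, 7.57 and 7.69 with ANRIL siRNA and 7.58, 7.27 and 7.43 with control siRNA, which overlap narrowly (0.23 ± 0.08, adjusted p = 0.209). PIR, which encodes pirin, a nuclear iron-binding protein, was apart, at 11.822, 11.848 and 11.761 with ANRIL siRNA and 12.004, 12.026 and 11.990 with control siRNA (−0.20 ± 0.06, adjusted p = 0.169), and it was called with the trended robust prior (adjusted p = 0.0159). Of 15 further regulators of NRF2 14 lay below 0, where 77.1% of genes of like brightness did on average. Their median was −0.09, and 4 lay above and 11 below the median of genes of like brightness. At an unadjusted p under 0.05, 0 were higher and 1 lower. The lowest p was that of NFE2L3, a factor related to NRF2, at 10.08, 9.97 and 9.98 with ANRIL siRNA and 10.21, 10.19 and 10.13 with control siRNA (−0.17 ± 0.06, adjusted p = 0.207).

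Of 30 other antioxidant enzymes and their partners, 26 lay below 0 and 4 above, where 83.1% of genes of like brightness lay below 0 on average. Their median was −0.09, and 13 lay above and 17 below the median of genes of like brightness. At an unadjusted p under 0.05, 0 were higher and 6 lower, against 9.83% and 8.16% of all genes. TXNIP, an inhibitor of thioredoxin, was the furthest from 0, at 11.42, 11.44 and 11.32 with ANRIL siRNA and 11.70, 11.69 and 11.59 with control siRNA (−0.26 ± 0.06, adjusted p = 0.148). TXNIP was called with the trended robust prior (adjusted p = 0.00504), and also when only the genes above the median signal were tested (adjusted p = 0.0326). The latter fit called 0.556% of its 9887 genes higher and 2.57% lower, and 74.1% of them lay below 0. MSRA, a methionine sulfoxide reductase, had the smallest p of those above 0 with a signal above the median, at 0.04 ± 0.07. Among 14 genes of heme and iron handling 4 lay above 0 and 10 below, where 86.3% of genes of like brightness lay below 0 on average. Of the 14, 10 lay above the median of genes of like brightness and 4 below it. HMOX2, the constitutive heme oxygenase, was on the other side of 0 from HMOX1, with 9.81, 9.96 and 9.89 with ANRIL siRNA and 10.04, 10.12 and 10.10 with control siRNA (−0.20 ± 0.06, adjusted p = 0.176). FECH, ferrochelatase, which inserts iron to complete heme, was at 0.05 ± 0.06.

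Of 12 genes that form or regulate sources of superoxide, 6 lay on each side of 0 and 4 were above the median signal. Those 4, NOX4, CYBA, RAC1 and RAC2, all lay below 0, and the 6 above 0 were all dimmer. Of genes of like brightness 48.3% lay below 0 on average, and 8 of the 12 lay above the median of such genes. At an unadjusted p under 0.05, 2 were higher and 1 lower, against 9.83% and 8.16% of all genes. NOX4, the main NADPH oxidase of endothelial cells, read 9.80, 9.71 and 9.63 with ANRIL siRNA and 9.91, 10.08 and 9.82 with control siRNA, narrowly apart (−0.22 ± 0.08, adjusted p = 0.203). The amino acid response of ATF4, which also drives SLC7A11, had 6 of 14 genes above 0 and 8 below (median −0.01). Of genes of like brightness 73.7% lay below 0 on average, and 11 of the 14 lay above the median of such genes. CHAC1, a glutathione-degrading enzyme of that response, read 7.80, 7.89 and 7.85 with ANRIL siRNA and 7.72, 7.66 and 7.62 with control siRNA (0.18 ± 0.06, adjusted p = 0.186). ATF4 itself was at −0.09 ± 0.06 with overlapping groups.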

How the data were processed

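Total RNA from 3 ANRIL siRNA and 3 control siRNA samples of HUVECs was hybridised to 1 array each. The deposited table holds log2 signals of 54675 probe sets made by the authors; RMA, affy and limma are named, per the submitters' processing notes, without versions. RMA corrects background, normalizes by quantiles and summarises probes, so each value depends in part on the other arrays. Scanner files and scan dates were not used here, and the small number of arrays limits the precision.

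Control probe sets (62) were left out. Symbols came from the platform annotation, of which 41091 probe sets carried 1 symbol, 1801 several and 11721 none listed. 41037 of the first kind were matched to RefSeq. Each of 19775 genes was read at its brightest such probe set by the mean of all 6 arrays. limma 3.58.1 in R 4.3.3 (lmFit, eBayes, constant prior) gave the log2 difference of ANRIL siRNA over control siRNA, with Benjamini-Hochberg adjustment over all genes and a threshold of 0.05. The other probe sets of a gene came from a fit over all 54613. The fit was tested on simulated data. The text names all 32 genes and, from each other pathway list, the gene of smallest p on each side of 0 among those above the median signal. The members and lists were chosen with earlier results of these data known. Same-numbered arrays deviated together with correlations of 0.06, 0.14 and −0.04, so the numbers were not taken to pair samples. Alternatives covered scaling, prior, block, array weights, filter, probe set rule and each array left out.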

Additional observations from a re-analysis of the deposited data

How the results depend on the processing

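Of the 31 genes, 0 passed in either direction under 3 other scalings, array weights, both other probe set rules, the filter on dim genes (HMOX1 adjusted p = 0.0543), an adjusted p under 0.1 and each array left out. The replicate block, whose numbers were not shown to pair samples, changed no call (0 passing, median −0.0203, HMOX1 adjusted p = 0.173). At an unadjusted p under 0.05 the counts were 1 higher and 3 lower. At an adjusted p under 0.05 the intensity-trended robust prior gave 2 higher and 1 lower, and with cyclic loess added 1 and 0. In leave-one-out fits with that prior, chosen after seeing the data, the calls ran from 0 to 2 higher and from 0 to 4 lower, while those over all genes ran from 0.0101% to 1.77% higher and from 0.192% to 5.65% lower. The median difference was 0.0205 with quantile normalization, −0.0706 with median centring and 0.0508 with cyclic loess under either prior, and −0.0407 to −0.0005 with each array left out. Below 0 were 7 genes with quantile normalization, 8 with cyclic loess, 13 of 24 without _s_at and _x_at probe sets and 16 to 22 with each array left out. Scaling set the sign of many differences near 0, and the cause was not tested.

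With quantile normalization the sign turned for ABCC1 (0.0252), GPX1 (0.0008), GSR (0.0296), MAFG (0.0219), ME1 (0.0171), NFE2L2 (0.0872), NQO1 (0.0186), PGD (0.0085), PRDX1 (0.0123), PRDX6 (0.0205), SOD1 (0.0034), TALDO1 (0.0558), TKT (0.05) and TXN (0.0134). With cyclic loess, under either prior, it turned for ABCC1 (0.0145), GPX1 (0.0508), GSR (0.0254), MAFG (0.0129), ME1 (0.0087), NFE2L2 (0.0773), NQO1 (0.0530), PRDX1 (0.0699), PRDX6 (0.0624), SOD1 (0.0165), TALDO1 (0.0601), TKT (0.0659) and TXN (0.0336). Median centring turned BACH1 (−0.0215), FTL (−0.0443), GCLM (−0.0229), MSRA (−0.0122), OSGIN1 (−0.0367), SLC7A11 (−0.0162) and SRXN1 (−0.0116), and array weights turned OSGIN1 (−0.0218). The mean of all probe sets turned FTL (−0.0032), GCLC (0.0415), GCLM (−0.0379), GSR (0.0505), MSRA (−0.0135), NQO1 (0.0049), PGD (0.0064), PRDX3 (0.0176), SLC7A11 (−0.0188) and TXN (0.0357), and leaving out _s_at and _x_at probe sets turned GCLC (0.0339) and TXN (0.1145). With each array left out, differences that turned ran from −0.0649 to 0.0551 for AKR1B10, −0.0354 to 0.0684 for BACH1, −0.1588 to 0.0240 for CDKN2B-AS1, −0.0019 to 0.0135 for FTL, −0.1063 to 0.0029 for GSR, −0.0376 to 0.0910 for MSRA, −0.0237 to 0.0241 for NFE2L2, −0.0349 to 0.0806 for OSGIN1, −0.1841 to 0.0070 for PGD, −0.0275 to 0.0223 for PRDX1, −0.0340 to 0.0032 for PRDX6, −0.0632 to 0.0273 for TALDO1 and −0.0530 to 0.0096 for TKT.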
